A study of Mus musculus with 17 samples.

Results

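The antioxidant genes followed here in sorted mouse bone marrow were the 8 genes Prdx2, Cat, Gpx1, Gclm, Gclc, Nqo1, Hmox1 and Txnrd1. They were taken as all probe sets of the array to which the platform annotation gives 1 of these symbols and no other. That rule found 14 of 45101 probe sets, and all 14 passed the filter on low values. Where a gene had several probe sets, the brightest stood for it among the 14245 genes tested. In the RefSeq gene table (GRCm38.p6) Prdx2 lies at chr8:84969622-84974811, Cat at chr2:103453904-103485153, Gpx1 at chr9:108339080-108340342 and Gclm at chr3:122245487-122267215. Gclc lies at chr9:77754535-77794489, Nqo1 at chr8:107388225-107403205, Hmox1 at chr8:75093618-75100593 and Txnrd1 at chr10:82833951-82897724.

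Total RNA was measured on 17 Affymetrix arrays in 5 groups. Batch 1 held GPI-negative cells of Pig-a knock-out marrow (KO GPI- cells, 3 arrays) and GPI-positive cells of knock-out marrow (KO GPI+ cells, 3 arrays). Batch 2 held GPI-negative cells from recipients of knock-out marrow (KO graft GPI- cells, 4 arrays), GPI-positive cells from recipients of wild-type marrow (WT graft GPI+ cells, 3 arrays) and GPI-positive cells of untransplanted wild-type C57BL/6 mice (WT GPI+ cells, 4 arrays). GPI is the glycolipid anchor that holds a class of proteins on the cell surface, and Piga encodes part of the enzyme that starts its synthesis. Cells were sorted with pooled antibodies to CD24, CD48 and Gr-1. Knock-out marrow for grafting was first treated with 10 nM aerolysin for 30 min, a toxin that lyses GPI-positive cells, and its C57BL/6 hosts had received 9 Gy of irradiation. These steps are described for recipients of knock-out marrow, and the conditioning of recipients of wild-type marrow is not given in the labels. Mouse age, the strain of the knock-out mice, the promoter behind the deletion and the share of host cells left after grafting are not stated there either. Both batch 1 groups come from knock-out mice, the KO GPI+ cells being those that kept the anchor. The graft groups differ both in GPI status and in the genotype of the donor.

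Antioxidant defence works in layers. Superoxide is turned into hydrogen peroxide, which catalase (Cat), glutathione peroxidase 1 (Gpx1) and the peroxiredoxins (Prdx2 among them) remove. Glutathione is built from the product of glutamate-cysteine ligase, an enzyme of a catalytic subunit (Gclc) and a modifier subunit (Gclm), while thioredoxin reductase 1 (Txnrd1) recharges thioredoxin. Nqo1, a quinone reductase, and Hmox1, which opens the heme ring, are classical targets of the transcription factor Nrf2 (gene Nfe2l2). Nrf2 is held down by Keap1, binds antioxidant response elements with a small Maf partner, and is opposed there by Bach1. Maturing red cells carry much Prdx2, Cat and Gpx1, and macrophages that clear red cells are a known site of Hmox1 expression.

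Promoter sequences are shown because Nrf2 binding at such elements is the textbook link between several of these genes. The RefSeq promoter table (GRCm38.p6, 250 bases before to 50 after the start) held 8 promoters of 6 members. Gclc and Hmox1 are named only. The core TGACNNNGC was searched on both strands, and its hit is in capitals. It was present in 2 of the 8, against 12.4% of all 32851 promoters in the table.
Gclm, chr3:122245307-122245606, plus strand: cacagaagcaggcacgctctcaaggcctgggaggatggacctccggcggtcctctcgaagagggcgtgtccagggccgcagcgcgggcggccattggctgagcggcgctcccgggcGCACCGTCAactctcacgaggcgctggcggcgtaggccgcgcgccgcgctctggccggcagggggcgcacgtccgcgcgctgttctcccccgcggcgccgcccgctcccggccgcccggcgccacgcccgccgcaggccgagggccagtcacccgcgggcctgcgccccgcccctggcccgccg
Txnrd1, chr10:82858956-82859255, plus strand: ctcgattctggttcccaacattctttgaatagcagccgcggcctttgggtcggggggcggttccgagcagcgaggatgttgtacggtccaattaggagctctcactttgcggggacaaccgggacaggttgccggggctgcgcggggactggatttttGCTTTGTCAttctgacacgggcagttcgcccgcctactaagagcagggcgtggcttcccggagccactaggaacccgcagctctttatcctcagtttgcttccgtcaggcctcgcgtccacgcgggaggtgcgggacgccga
Prdx2, chr8:84969372-84969671, plus strand: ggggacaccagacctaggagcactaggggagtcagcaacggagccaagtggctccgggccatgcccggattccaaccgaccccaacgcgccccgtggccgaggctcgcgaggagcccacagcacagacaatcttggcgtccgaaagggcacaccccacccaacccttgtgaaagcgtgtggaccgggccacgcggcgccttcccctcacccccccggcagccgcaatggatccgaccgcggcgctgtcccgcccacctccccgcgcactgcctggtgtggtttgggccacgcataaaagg
Cat, chr2:103485104-103485403, minus strand: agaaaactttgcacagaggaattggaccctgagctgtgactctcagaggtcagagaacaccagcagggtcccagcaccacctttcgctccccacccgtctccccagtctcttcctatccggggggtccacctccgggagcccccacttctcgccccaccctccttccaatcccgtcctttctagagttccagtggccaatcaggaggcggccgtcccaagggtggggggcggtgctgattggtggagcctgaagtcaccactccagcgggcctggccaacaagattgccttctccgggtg
The Gclm hit begins at position -134 from the start and the Txnrd1 hit at position -92, each on the opposite strand to the gene. Prdx2 and Cat are shown as members whose windows do not hold these letters. The other 2 Txnrd1 promoters and those of Nqo1 and Gpx1 held none either. A match is a description of the letters, not a binding site, and bases outside these windows were not searched.

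Values below are log2 signals, which were normalized separately in each batch, so levels are compared only within a batch. Differences are log2 with the standard error (SE) of a limma fit, and p-values are adjusted over all 14245 genes with a threshold of 0.05. Array numbers are the replicate numbers of the labels. Piga averaged 1.74 in KO GPI- cells and 3.78 in KO GPI+ cells. It averaged 0.51 in KO graft GPI- cells, 4.13 in WT graft GPI+ cells and 4.20 in WT GPI+ cells, without overlap between GPI-negative and GPI-positive arrays. The Piga difference was -2.04 ± 0.16 in knock-out marrow and -3.62 ± 0.15 between the graft groups. The difference between these comparisons was itself called (1.58 ± 0.22, adjusted p = 6.5e-05). KO GPI- array 2 stood apart in its mean level of 14 erythroid marker genes, 6.22 against 4.77 and 5.22 on arrays 1 and 3. Over genes with a mean above the median of all gene means, the median SD was 0.174 between KO GPI- arrays. It was only 0.0636 between KO GPI+ arrays, the smallest of the 5 groups. Spiked hybridisation controls averaged 7.26 to 7.96 on the KO GPI- arrays and 5.25 to 5.74 on the KO GPI+ arrays. The 3' minus 5' signal of Gapdh was -0.29 to -0.04 in KO GPI- cells and -1.03 to -1.0 in KO GPI+ cells, so hybridisation and RNA measures moved with that comparison, and their part in it was not tested. In batch 2 the controls averaged 6.13 to 6.51 in KO graft GPI- cells, 6.11 to 6.44 in WT graft GPI+ cells and 5.29 to 6.21 in WT GPI+ cells. The Gapdh measure was -0.95 to -0.33 in KO graft GPI- cells, -0.88 to -0.49 in WT graft GPI+ cells and -0.96 to -0.84 in WT GPI+ cells. The controls thus lay mostly higher in KO graft GPI- than in WT GPI+ cells, with some overlap. The Gapdh measure lay above the WT GPI+ range on KO graft GPI- arrays 1 and 2 (-0.52 and -0.33). It lay within that range on arrays 3 and 4 (-0.95 and -0.9). The part of the controls and of the Gapdh measure in that comparison was not tested either.

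**Figure D1:**
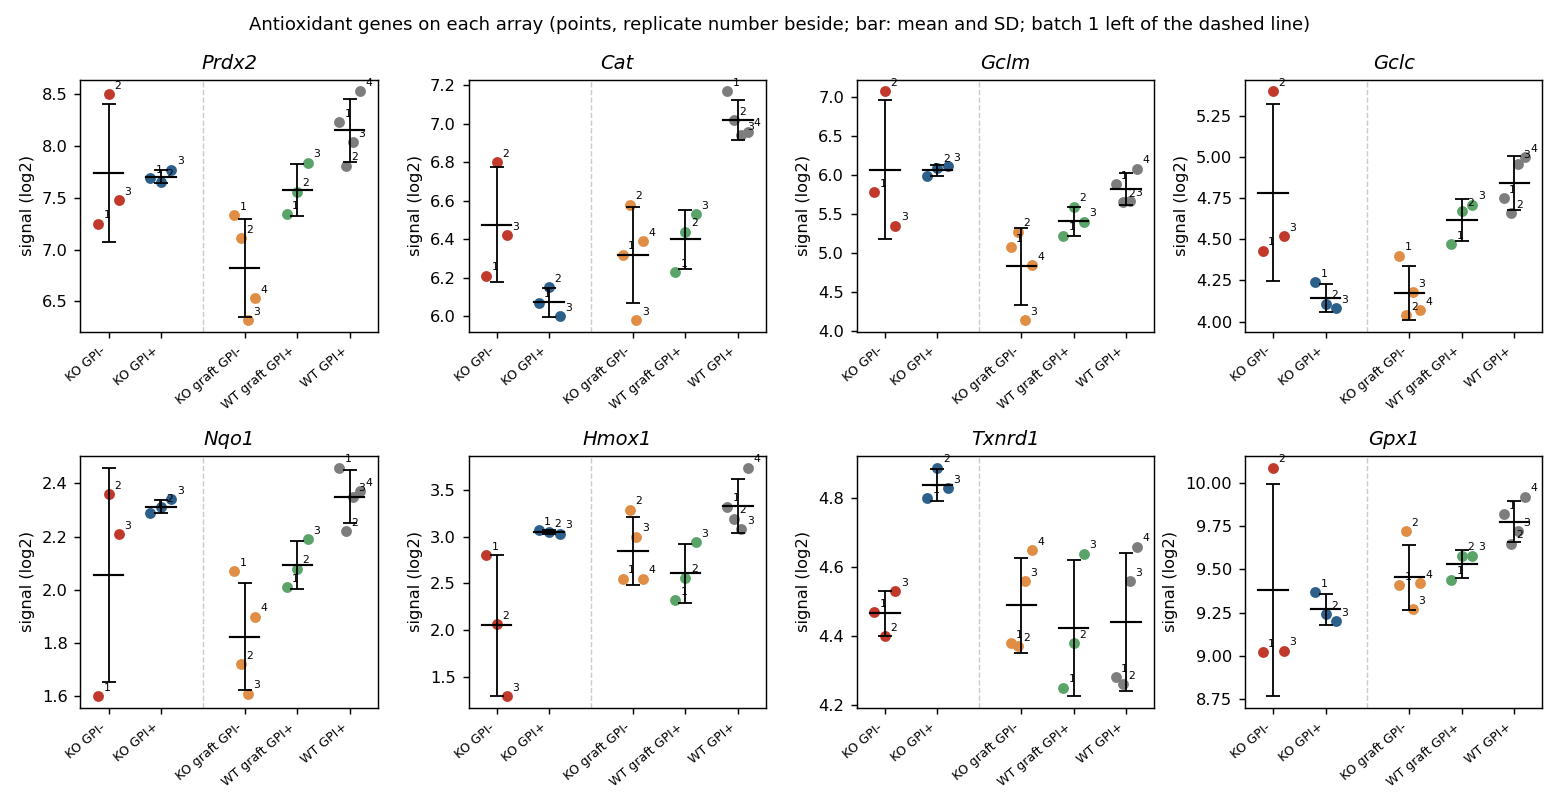
Log2 signal of the brightest probe set of each antioxidant gene on every array, with the replicate number beside each point and bars for mean and SD. Batch 1 lies left of the dashed line in each panel, and levels are not compared across it. KO GPI- array 2 is the highest of its group for Prdx2, Cat, Gclm, Gclc, Nqo1 and Gpx1.

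In brief, 5 of the 8 genes were lower in KO graft GPI- cells than in WT GPI+ cells, none passed the threshold between the graft groups, and the knock-out comparison split them into 2 higher and 2 lower. The background was 12.4% of all genes called between KO graft GPI- and WT GPI+ cells, with 6.84% higher and 5.55% lower. It was 7.39% between the graft groups, 3.95% higher and 3.45% lower. Between KO GPI- and KO GPI+ cells 29.5% of all genes were called, 14.8% in either direction, so the share of 4 in 8 is read against a comparison in which many genes moved. Between WT graft GPI+ and WT GPI+ cells only 0.842% of genes were called, 0.449% higher and 0.393% lower, and 1 member, Cat, was among those lower. For the difference between the knock-out and the graft comparison, 2 members passed, 1 above and 1 below 0, where 19.0% of genes did, 9.04% above and 9.96% below. The median log2 difference of the 8 genes was -0.60 for KO graft GPI- minus WT GPI+ cells, where the median of all genes was 0.02. It was -0.18 between the graft groups (all genes -0.01), -0.34 for WT graft GPI+ minus WT GPI+ cells (all genes 0.02) and 0.02 for KO GPI- minus KO GPI+ cells (all genes -0.01). In bulk RNA, fewer cells of a type and less RNA per cell cannot be told apart.

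**Figure D2:**
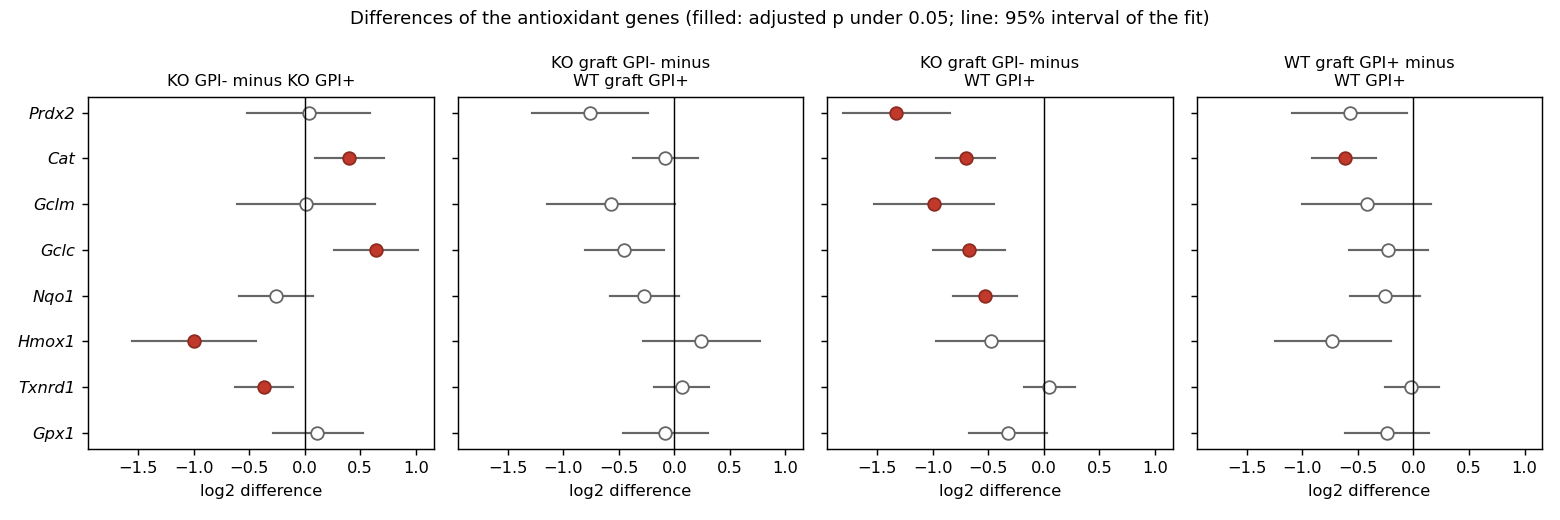
Log2 difference of each antioxidant gene in the 4 comparisons, with the 95% interval of the fit as a line. Filled points passed the adjusted threshold. There are 5 genes filled on the negative side for KO graft GPI- minus WT GPI+ cells, none between the graft groups, and Hmox1 and Txnrd1 lie below 0 while Cat and Gclc lie above 0 in the knock-out comparison.

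Prdx2, a peroxiredoxin that is among the most abundant proteins of red cells, showed the widest span of the set in batch 2. It read 7.33, 7.11, 6.32 and 6.53 on the KO graft GPI- arrays, 7.34, 7.56 and 7.84 on the WT graft GPI+ arrays, and 8.23, 7.81, 8.04 and 8.53 on the WT GPI+ arrays. The KO graft GPI- arrays lay below every other array of the batch, arrays 3 and 4 far below, and array 1 only just under the lowest WT graft GPI+ array. Against WT GPI+ cells the difference was -1.33 ± 0.23 (SE, n = 4 and 4), a 2.52-fold lower signal (adjusted p = 0.00051). Against WT graft GPI+ cells it was -0.76 ± 0.25 (n = 4 and 3), which missed the threshold after adjustment (unadjusted p = 0.0062, adjusted p = 0.071), although the arrays did not overlap. It passed in 5 of 28 other settings. WT graft GPI+ cells were in turn -0.57 ± 0.25 relative to WT GPI+ cells (adjusted p = 0.29), with overlap of 1 array. In batch 1, Prdx2 read 7.25, 8.50 and 7.48 in KO GPI- cells and 7.69, 7.65 and 7.77 in KO GPI+ cells. Array 2 alone lay above the KO GPI+ arrays and the other KO GPI- arrays lay below them. The difference was 0.04 ± 0.27 (95% interval -0.52 to 0.59), and -0.34 without that array (adjusted p = 0.31). The dimmer probe set 1430979_a_at gave -1.10 ± 0.30 for KO graft GPI- minus WT GPI+ cells (adjusted p = 0.024 over 26398 probe sets), and on it the same 2 groups did not overlap either.

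Cat encodes catalase. It read 6.32, 6.58, 5.98 and 6.39 in KO graft GPI- cells, 6.23, 6.44 and 6.53 in WT graft GPI+ cells, and 7.17, 7.02, 6.94 and 6.96 in WT GPI+ cells. The WT graft GPI+ range lay within the KO graft GPI- range, and both groups lay below every WT GPI+ array. Against WT GPI+ cells, KO graft GPI- cells differed by -0.70 ± 0.13 (1.63-fold lower, adjusted p = 0.00079) and WT graft GPI+ cells by -0.62 ± 0.14 (1.54-fold lower, adjusted p = 0.035). These comparisons share the WT GPI+ arrays. Between the graft groups the difference was -0.08 ± 0.14, with a 95% interval of -0.37 to 0.21. Cat was thus the 1 member called in both kinds of graft, though its call in WT graft GPI+ cells held in 14 of 28 other settings and was lost without any 1 of the WT graft GPI+, WT GPI+ or KO GPI+ arrays, the last entering through the shared fit (adjusted p up to 0.159). In batch 1, Cat read 6.21, 6.80 and 6.42 in KO GPI- cells and 6.07, 6.15 and 6.0 in KO GPI+ cells. Each KO GPI- array lay above each KO GPI+ array, array 1 by a small margin. The difference of 0.40 ± 0.15 passed narrowly (adjusted p = 0.046), and held in 11 of 28 other settings. It was 0.24 without KO GPI- array 2 (adjusted p = 0.24) and had an adjusted p of 0.051 when all probe sets were fitted. The second probe set, 1416430_at, gave 0.51 ± 0.24 in knock-out marrow and -0.62 ± 0.20 for KO graft GPI- minus WT GPI+ cells, neither past the threshold (adjusted p = 0.12 and 0.060).

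Gpx1, a selenium-dependent peroxidase that uses glutathione, had a bright signal on every array and no call in any comparison. It read 9.41, 9.72, 9.27 and 9.42 in KO graft GPI- cells, 9.44, 9.58 and 9.58 in WT graft GPI+ cells, and 9.82, 9.65, 9.72 and 9.92 in WT GPI+ cells. One KO graft GPI- array reached into the WT GPI+ range, while the WT graft GPI+ arrays lay just under it. The difference was -0.32 ± 0.17 for KO graft GPI- minus WT GPI+ cells (95% interval -0.67 to 0.03, adjusted p = 0.26), and it passed only when KO GPI- array 2, which is not in this comparison, was left out of the shared fit (adjusted p = 0.031). In batch 1, Gpx1 read 9.02, 10.09 and 9.03 in KO GPI- cells and 9.37, 9.24 and 9.20 in KO GPI+ cells. Array 2 stood highest and arrays 1 and 3 lowest of the 6. The difference was 0.11 ± 0.19, and -0.24 without array 2 (adjusted p = 0.17).

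Glutamate-cysteine ligase makes the precursor of glutathione. Gclm, the modifier subunit, read 5.07, 5.27, 4.14 and 4.84 in KO graft GPI- cells, 5.22, 5.59 and 5.40 in WT graft GPI+ cells, and 5.88, 5.65, 5.66 and 6.08 in WT GPI+ cells. Every KO graft GPI- array lay below every WT GPI+ array, array 3 by the most, and array 2 reached into the WT graft GPI+ range. The difference from WT GPI+ cells was -0.99 ± 0.26 (1.99-fold lower, adjusted p = 0.014), and -0.76 without KO graft GPI- array 3 (adjusted p = 0.056). Between the graft groups it was -0.57 ± 0.28 (adjusted p = 0.26). Probe set 1439050_at, dimmer and tighter, gave -1.02 ± 0.14 against WT GPI+ cells (adjusted p = 9.2e-05) and -0.52 ± 0.16 against WT graft GPI+ cells (adjusted p = 0.058). On it the KO graft GPI- arrays read 2.62, 2.47, 2.16 and 2.34, all below the WT graft GPI+ arrays at 2.94, 2.83 and 2.99, which were all below the WT GPI+ arrays at 3.56, 3.20, 3.36 and 3.56. In batch 1, Gclm read 5.78, 7.07 and 5.35 in KO GPI- cells and 5.98, 6.09 and 6.11 in KO GPI+ cells. Array 2 was again the high one and the others lay under KO GPI+ cells. The difference was 0.01 ± 0.30, and -0.49 without array 2 (adjusted p = 0.11).

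Gclc, the catalytic subunit, read 4.40, 4.04, 4.18 and 4.07 in KO graft GPI- cells, 4.47, 4.67 and 4.71 in WT graft GPI+ cells, and 4.75, 4.66, 4.96 and 5.0 in WT GPI+ cells. The KO graft GPI- arrays lay below both other groups, which overlapped. Against WT GPI+ cells the difference was -0.67 ± 0.16 (1.59-fold lower, adjusted p = 0.0062). Against WT graft GPI+ cells it was -0.45 ± 0.17 (unadjusted p = 0.016, adjusted p = 0.13), and it passed in 4 of 28 other settings, one of them without KO GPI- array 2 (adjusted p = 0.012). The other Gclc probe set, 1424296_at, was called between the graft groups, at -0.65 ± 0.13 (1.57-fold lower, adjusted p = 0.0048 over all probe sets). It was the 1 member probe set of 14 called there, where 4.67% of all probe sets were, 2.59% higher and 2.08% lower. It read 4.29, 3.74, 4.20 and 3.80 in KO graft GPI- cells and 4.59, 4.72 and 4.66 in WT graft GPI+ cells, without overlap.

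In knock-out marrow Gclc went the other way. It read 4.43, 5.40 and 4.52 in KO GPI- cells and 4.24, 4.11 and 4.08 in KO GPI+ cells, with each KO GPI- array above each KO GPI+ array and array 2 far above. The difference was 0.64 ± 0.18 (1.56-fold higher, adjusted p = 0.010). It was 0.33 without array 2 (adjusted p = 0.069). The call held in 25 of 28 other settings, and was also lost with each batch fitted on its own (adjusted p = 0.0635). Probe set 1424296_at read 4.67, 4.91 and 5.05 in KO GPI- cells and 4.46, 4.51 and 4.46 in KO GPI+ cells, and there array 2 was not the highest. Its difference was 0.40 ± 0.14 (adjusted p = 0.039). The difference between the knock-out and the graft comparison, which share no array, was itself tested. For Gclc it was 1.09 ± 0.25 (adjusted p = 0.0038), and 1.05 ± 0.19 on 1424296_at (adjusted p = 0.00084). Without KO GPI- array 2 it was 0.78 (adjusted p = 0.0037).

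Nqo1, which reduces quinones without leaving a radical, was dim, with group means between the 59.4th and the 68.3rd percentile of all probe sets. It read 2.07, 1.72, 1.61 and 1.90 in KO graft GPI- cells, 2.01, 2.08 and 2.19 in WT graft GPI+ cells, and 2.46, 2.22, 2.35 and 2.37 in WT GPI+ cells. All KO graft GPI- arrays lay below all WT GPI+ arrays, and array 1 alone reached into the WT graft GPI+ range. The difference from WT GPI+ cells was -0.53 ± 0.14 (1.44-fold lower, adjusted p = 0.014). It missed the threshold without KO graft GPI- array 3 (-0.46, adjusted p = 0.051). With an offset of 10 added before the log2 it was -0.15 and still called, so its size depends on the scale. Against WT graft GPI+ cells it was -0.27 ± 0.15 (95% interval -0.58 to 0.04, adjusted p = 0.34). In batch 1, Nqo1 read 1.60, 2.36 and 2.21 in KO GPI- cells and 2.29, 2.31 and 2.34 in KO GPI+ cells. The groups overlapped through array 2, and the difference of -0.26 ± 0.16 did not pass (adjusted p = 0.25).

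Hmox1, which breaks heme into biliverdin, iron and carbon monoxide, was the member with the largest called change in knock-out marrow. It read 2.80, 2.06 and 1.29 in KO GPI- cells and 3.07, 3.05 and 3.03 in KO GPI+ cells. Every KO GPI- array lay below the KO GPI+ arrays, but they were spread over more than a log2 unit, and here array 2 lay in the middle. The difference was -1.0 ± 0.27 (2.0-fold lower, adjusted p = 0.0074). It was -0.62 without KO GPI- array 3, the lowest (adjusted p = 0.065), and -1.01 without array 2 (adjusted p = 0.017). With an offset of 10 added before the log2, which shrinks the differences of dim genes, it was -0.39 and still called. In batch 2, Hmox1 read 2.55, 3.29, 3.0 and 2.55 in KO graft GPI- cells, 2.32, 2.56 and 2.94 in WT graft GPI+ cells, and 3.32, 3.19, 3.08 and 3.74 in WT GPI+ cells. The graft groups overlapped widely, and only the WT graft GPI+ arrays lay wholly below WT GPI+ cells. KO graft GPI- minus WT graft GPI+ cells gave 0.24 ± 0.25, and WT graft GPI+ minus WT GPI+ cells gave -0.73 ± 0.25 (unadjusted p = 0.009, adjusted p = 0.18). The difference between the knock-out and the graft comparison was -1.24 ± 0.37 (adjusted p = 0.021), and -0.48 with the offset. It missed the threshold without KO GPI- array 3 (-0.86, adjusted p = 0.064) or without WT graft GPI+ array 1 (adjusted p = 0.054).

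Txnrd1, the cytosolic thioredoxin reductase, was lower in KO GPI- cells on all 3 of its probe sets and had no call in batch 2. The brightest, 1421529_a_at, read 4.47, 4.40 and 4.53 in KO GPI- cells and 4.80, 4.89 and 4.83 in KO GPI+ cells. Both groups were tight and did not overlap. The difference was -0.37 ± 0.13 (1.29-fold lower, adjusted p = 0.030). It was -0.56 ± 0.17 on 1424486_a_at (adjusted p = 0.018) and -0.64 ± 0.15 on 1424487_x_at (adjusted p = 0.0024), both dim. Leaving out any 1 of KO GPI- arrays 1 and 2 or the KO GPI+ arrays moved the adjusted p of the brightest to between 0.058 and 0.096. In batch 2 it read 4.38, 4.37, 4.56 and 4.65 in KO graft GPI- cells, 4.25, 4.38 and 4.64 in WT graft GPI+ cells, and 4.28, 4.26, 4.56 and 4.66 in WT GPI+ cells. The 3 groups covered the same range. The 95% interval of the difference was -0.18 to 0.28 against WT GPI+ cells and -0.18 to 0.31 against WT graft GPI+ cells.

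All 4 calls in knock-out marrow, and both calls of the difference between comparisons, lost the threshold when the 3 close KO GPI+ arrays were averaged into 1 sample. The adjusted p was then 0.30 for Cat, 0.15 for Gclc, 0.13 for Hmox1 and 0.26 for Txnrd1. For the difference between comparisons it was 0.051 for Gclc and 0.14 for Hmox1. At the level of probe sets, 8 of 14 member probe sets were lower and none higher in KO graft GPI- than in WT GPI+ cells, where 9.37% of all probe sets were called, 4.78% higher and 4.59% lower. Those 8 were of Prdx2, Cat, Gclm, Gclc and Nqo1. In KO GPI- against KO GPI+ cells 2 were higher and 4 lower, against 27.2% of all, 12.1% higher and 15.1% lower. The 2 higher were both of Gclc, and the 4 lower were of Txnrd1 and Hmox1. In WT graft GPI+ against WT GPI+ cells 1 of 14, of Cat, was lower, against 0.697% of all, 0.345% higher and 0.352% lower. For the difference between comparisons 2 were above 0 and 2 below, against 16.2% of all, 6.81% above and 9.41% below. Those above were both of Gclc, and those below were of Hmox1 and Txnrd1. Probe sets of the same gene were counted separately, so these are not counts of genes.

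Levels of marker genes moved with several of these values. The mean of the 14 erythroid markers tested, of 16 listed, was 3.10 to 4.34 on the KO graft GPI- arrays, 4.36 to 4.92 on the WT graft GPI+ arrays and 5.05 to 5.69 on the WT GPI+ arrays. Those groups follow the same order as Prdx2, and KO graft GPI- array 3, lowest in Prdx2, Cat, Gclm, Nqo1 and Gpx1, was the lowest in the markers too. All 14 markers were called lower in KO graft GPI- than in WT GPI+ cells, 6 of 14 were lower than in WT graft GPI+ cells, and 1 of 14 was lower in WT graft GPI+ than in WT GPI+ cells. None was called in knock-out marrow, where their mean was 4.77 to 6.22 in KO GPI- cells and 5.33 to 5.39 in KO GPI+ cells. No erythroid marker was at 0 in a group. Their part in the values of Prdx2, Cat, Gclm, Gclc and Nqo1 was not tested.

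**Figure D3:**
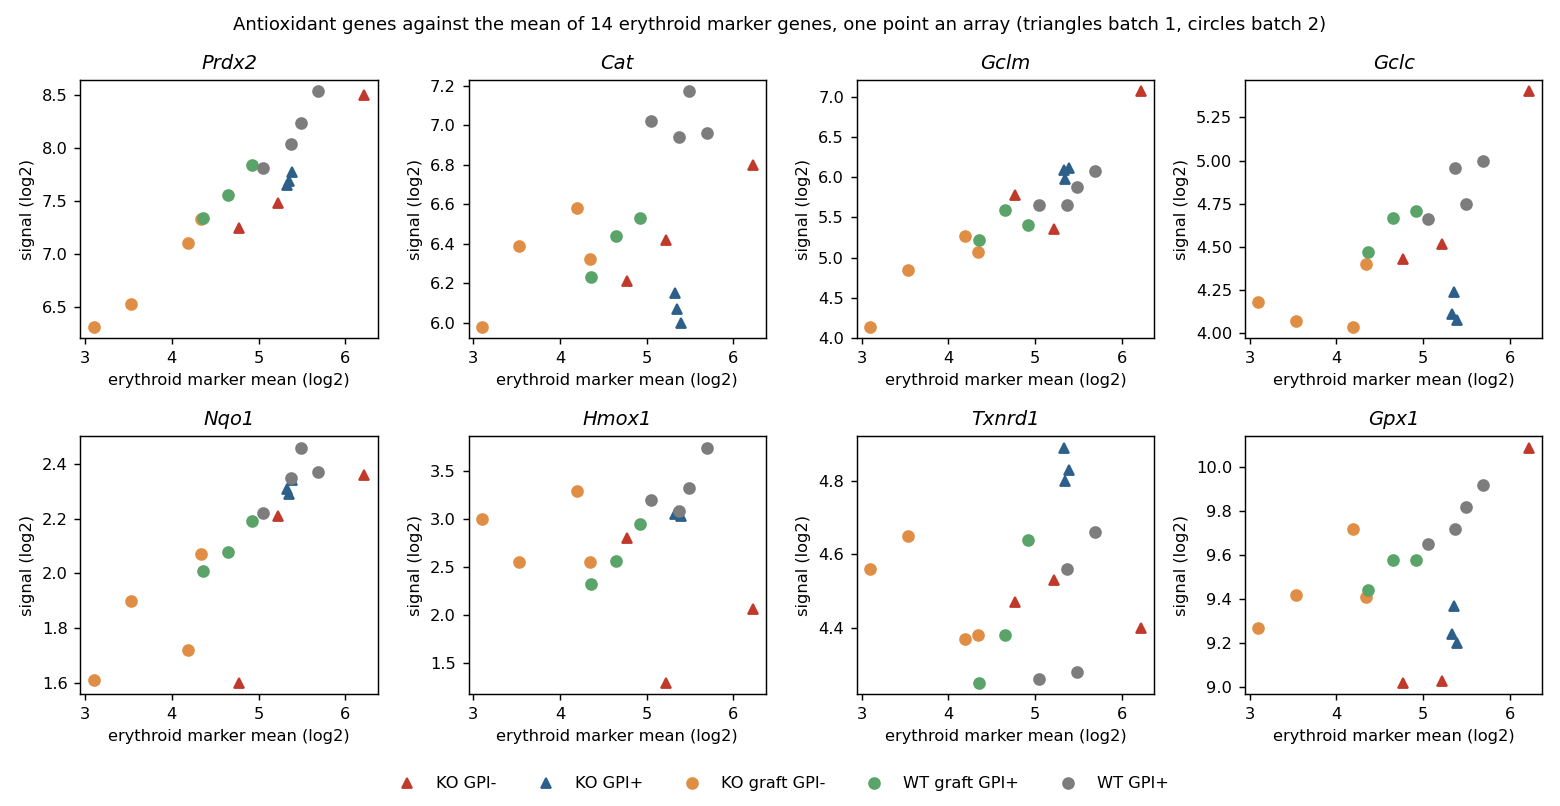
Log2 signal of each antioxidant gene against the mean log2 signal of 14 erythroid marker genes, 1 point per array, with triangles for batch 1 and circles for batch 2. Prdx2, Gclm and Nqo1 run from low to high along the marker mean within batch 2, and KO GPI- array 2 is the triangle at a marker mean of 6.22. Txnrd1 shows no such line.

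Macrophage markers moved beside Hmox1 in knock-out marrow. The mean of the 12 tested, of 13 listed, was 1.51 to 1.55 in KO GPI- cells and 2.31 to 2.35 in KO GPI+ cells, and 8 of 12 were called lower. C1qa, C1qc, Siglec1 and Timd4 lay below the 40th percentile on all KO GPI- arrays, and Siglec1 and Timd4 did so on all KO GPI+ arrays too. In batch 2 the mean was 1.67 to 1.91 in KO graft GPI- cells, 2.24 to 2.48 in WT graft GPI+ cells and 2.50 to 2.79 in WT GPI+ cells, while the Hmox1 difference between the graft groups was 0.24 as given above. Neutrophil markers, 13 tested of 14, averaged 8.64 to 8.92 in KO GPI- cells and 9.70 to 9.74 in KO GPI+ cells, with 10 of 13 called lower. T and NK cell markers, 13 tested of 15, averaged 5.46 to 5.59 in KO GPI- cells and 1.86 to 1.96 in KO GPI+ cells. They averaged 3.27 to 4.39 in KO graft GPI- cells, 1.78 to 2.15 in WT graft GPI+ cells and 2.03 to 2.53 in WT GPI+ cells. Monocyte markers, 7 of 7 tested, averaged 6.84 to 7.33 in KO graft GPI- cells, above 5.97 to 6.32 in WT graft GPI+ and 5.94 to 6.26 in WT GPI+ cells. B cell markers were higher in KO GPI- than in KO GPI+ cells for 8 of 11, and plasmacytoid dendritic cell markers for 7 of 8, which were also higher for 7 of 8 between the graft groups. Cell cycle genes were lower in KO graft GPI- than in WT graft GPI+ cells for 15 of 15, and for 14 of 15 against WT GPI+ cells. They were also lower in KO GPI- than in KO GPI+ cells for 8 of 15. The part of these cell types in the antioxidant values was not tested.

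The members also differed in which genes they tracked. After subtraction of each batch's mean, Pearson correlation over the 17 arrays was highest between Prdx2 and Gclm (0.91), Gclm and Gpx1 (0.87) and Prdx2 and Nqo1 (0.83). Hmox1 and Txnrd1 stood apart from these, with 0.27 and -0.12 to Prdx2, and reached 0.45 with each other. Arrays of a group share treatment and cell content, so these numbers describe the arrays and carry no test. KO GPI- array 2 was the highest of its group for Prdx2, Cat, Gclm, Gclc, Nqo1 and Gpx1, but not for Hmox1 or Txnrd1. The part of that array in the correlations was not tested. Outside the set, the genes most like Prdx2 were Tspan8 (0.993), Glrx5 (0.990), a mitochondrial glutaredoxin needed for iron-sulfur clusters, and Kel (0.987), a red cell blood group protein. Those most like Gpx1 were Mpp1 (0.970), a red cell membrane protein, Slc48a1 (0.956), a heme transporter, and Marchf2 (0.955). Nqo1 was closest to Cul4a (0.959), Epor (0.946), the erythropoietin receptor, and Gid8 (0.943). Gclm was closest to Isca1 (0.960), Hagh (0.945) and Aldh1a1 (0.935). Cat was closest to Xpo7 (0.928), 6030458C11Rik (0.925) and Nt5c3 (0.922), and Gclc to Cdc25b (0.941), Usp7 (0.924) and Mtcp1 (0.916). The best matches of Hmox1 were Pef1 (0.863), Rac2 (0.862), a small GTPase that activates the phagocyte oxidase, and Ube4a (0.861). Those of Txnrd1 were Anxa7 (0.903), Rab1b (0.897) and Srsf9 (0.865). Epor and Kel are also on the erythroid marker list.

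**Figure D4:**
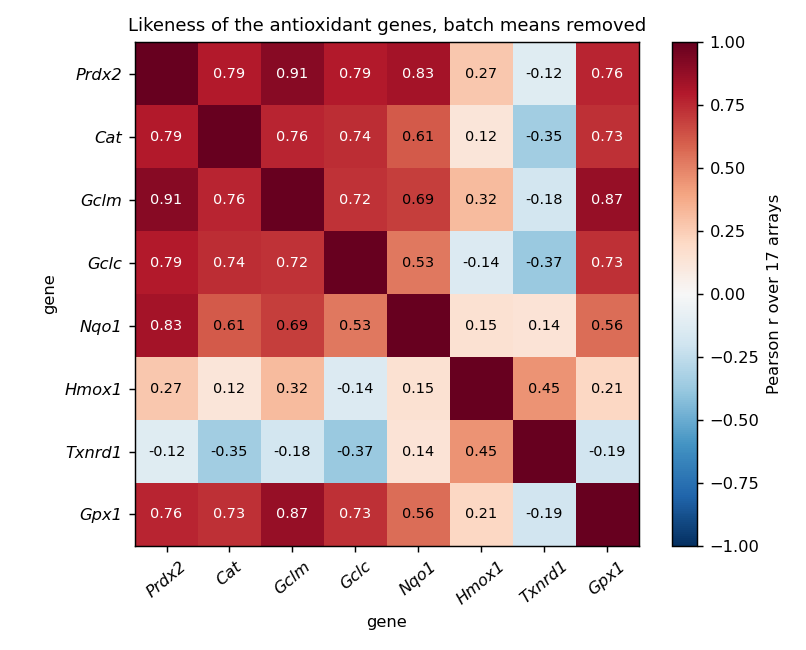
Pearson correlation between the antioxidant genes over 17 arrays after subtracting batch means, from -1 (blue) to 1 (red). Prdx2, Cat, Gclm, Gclc, Nqo1 and Gpx1 form a red block with values of 0.53 or more, and Hmox1 and Txnrd1 lie outside it. The genes of the block are also those for which KO GPI- array 2 is the highest of its group. The part of that array in the block was not tested.

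The neighbouring steps of the pathway were read from 7 lists that leave out the 8 members. In KO graft GPI- against WT GPI+ cells, 6.84% of all genes were higher and 5.55% lower, and the list counts are read against those shares. The lists with most genes lower were glutathione synthesis and use (6 lower and 2 higher of 24 tested, 25 listed) and heme and iron handling (7 lower and 1 higher of 14 tested, 16 listed). Their median log2 differences over the tested genes were -0.06 and -0.38, where all genes had 0.02. Mgst3, a microsomal glutathione transferase, differed by -1.54 ± 0.30 (2.92-fold lower, adjusted p = 0.0015), and Glrx5 by -1.27 ± 0.24 (adjusted p = 0.0013). Blvrb, a biliverdin reductase abundant in red cells, differed by -1.36 ± 0.25 (adjusted p = 0.00083) and Tfrc, the transferrin receptor, by -1.01 ± 0.18 (adjusted p = 0.00076). For each of these 4 genes the KO graft GPI- arrays lay below the WT GPI+ arrays. Without WT GPI+ array 4 the heme and iron count was 4 lower, and the glutathione count stayed at 5 to 7 lower without any 1 array. Genes higher there were Ggt5 (0.63 ± 0.20, with overlapping arrays) and Gstp1 (0.41 ± 0.10) for glutathione and Lrp1, a receptor for heme bound to hemopexin (0.88 ± 0.13). Of the other Nrf2 targets and NADPH-supplying enzymes, 3 of 19 were higher and 0 lower, with Abcc1, a transporter of glutathione conjugates, at 0.80 ± 0.14 (adjusted p = 0.00052) and Idh1, a cytosolic NADPH source, at 0.65 ± 0.13 (adjusted p = 0.0014). Thioredoxin genes gave 1 higher, Txnip (0.44 ± 0.13), and 1 lower, Txnrd2 (-0.60 ± 0.18), of 13. Sesn3 was the 1 of 16 Nrf2 pathway regulators called (0.42 ± 0.11, higher), and no gene of 7 for peroxide and superoxide removal or of 8 for NADPH oxidase and peroxidase was called. The single calls of Txnip, Txnrd2 and Sesn3, and the pair of higher glutathione genes, were each lost in part or whole when some 1 array of either group was left out.

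Between KO GPI- and KO GPI+ cells, where 14.8% of all genes were higher and 14.8% lower, the lists are read against that share. Of the NADPH oxidase and peroxidase genes, which make oxidants in phagocytes, 7 of 8 were lower and 0 higher. Epx, the eosinophil peroxidase, differed by -1.99 ± 0.35 (adjusted p = 0.00015) and Mpo, the neutrophil peroxidase, by -1.48 ± 0.16 (adjusted p = 4.3e-07). Mpo is also on the neutrophil marker list, and Epx on that of eosinophils, basophils and mast cells. The mean of the 9 markers tested of the second list was 2.57 to 2.80 in KO GPI- cells and 3.57 to 3.69 in KO GPI+ cells, with 4 of 9 called lower. It was 3.80 to 4.64 in KO graft GPI- cells and 3.96 to 4.21 in WT graft GPI+ cells, with 4 called higher and 2 lower. Thioredoxin system genes were lower in 8 of 13 and higher in 1, with Msra at -0.98 ± 0.14 and Msrb1 at -0.98 ± 0.15, both repair enzymes for oxidised methionine, and Txnrd3 at 0.44 ± 0.15. The Txnrd3 call was lost without KO GPI- array 3 or without any 1 of the KO GPI+ arrays. Txnrd1, not on this list, was lower in the same comparison. Without KO GPI- array 2 the thioredoxin count was 6 lower, and with the KO GPI+ arrays averaged it was 5.

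Glutathione genes were mixed in knock-out marrow, with 9 of 24 lower and 5 higher, or 5 lower and 2 higher with the KO GPI+ arrays averaged. Over all genes, 14.8% were called in each direction, and averaging left 835 higher and 817 lower in place of 2102 and 2104. Gsr, which recycles glutathione, differed by -1.65 ± 0.18 (3.14-fold lower, adjusted p = 6.5e-07) and Glrx by -1.02 ± 0.12, while Gstp1 (0.81 ± 0.12) and Ggct (0.75 ± 0.14) were higher. Gclc was higher there while Gsr was lower, both without overlap of arrays, and the Gclc call was lost in the settings given above. Other Nrf2 targets and NADPH suppliers were lower in 10 of 19 and higher in 4. Pgd, of the pentose phosphate pathway, was at -1.41 ± 0.19 and Nqo2, the relative of Nqo1, at -1.22 ± 0.15, against Ephx1 at 1.47 ± 0.16 and Cbr1 at 1.03 ± 0.12. Heme and iron genes were lower in 5 of 14 and higher in 0, with Hp (haptoglobin) at -1.11 ± 0.13 and Slc40a1, the iron exporter ferroportin, at -1.03 ± 0.14. Of the peroxide and superoxide genes, 1 of 7 was lower, Gpx3 at -0.70 ± 0.16.

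The regulators of the Nrf2 pathway split evenly in knock-out marrow, 4 of 16 higher and 4 lower, where 14.8% of all genes were called in each direction. Sesn3 (1.57 ± 0.13) and Sesn1 (1.07 ± 0.18), sestrins induced by stress, were higher, and Mafg (-0.93 ± 0.12), a small Maf partner, and Nfe2 (-0.70 ± 0.12) were lower. Nfe2l2 itself was at -0.53 (adjusted p = 0.0011) and Keap1 at 0.04 (adjusted p = 0.84), both named for their role and after their values were seen. Between the graft groups Nfe2l2 was at -0.04 (adjusted p = 0.89). Bach1, the repressor at the same elements, was at 0.48 ± 0.14 there, with overlapping arrays (adjusted p = 0.035). In knock-out marrow Bach1 was at -0.58 (adjusted p = 0.005). With the KO GPI+ arrays averaged, the counts of regulators were 4 higher and 2 lower, while the counts over all genes fell as given above.

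Between the graft groups 3.95% of all genes were higher and 3.45% lower, and each list held 3 calls or fewer. Gstm5 (-1.0 ± 0.21) was the 1 of 24 glutathione genes called. Blvrb (-1.01 ± 0.27) and Tfrc (-0.70 ± 0.20, with overlapping arrays) were lower and Lrp1 (0.67 ± 0.14) higher among 14 heme and iron genes. Txnip (0.59 ± 0.14) was higher and Txnrd3 (-0.48 ± 0.14) lower among 13 thioredoxin genes, and Ephx1 (0.66 ± 0.15) was the 1 of 19 other targets. Epx (-1.27 ± 0.32) and Mpo (-0.70 ± 0.15) were the 2 of 8 oxidase and peroxidase genes, both lower, and no peroxide gene of 7 passed. Of these calls, those of Bach1, Txnrd3, Blvrb and Tfrc were each lost without 1 or more single arrays: the count of regulators higher and that of thioredoxin genes lower became 0, and the heme and iron count of 2 lower became 0 without KO graft GPI- array 3 or 4 or WT graft GPI+ array 2 or 3. The glutathione count of 1 lower became 3 without KO GPI- array 2 or KO graft GPI- array 1, as did the count of 1 other target higher. The oxidase and peroxidase count became 1 without WT graft GPI+ array 2. Between WT graft GPI+ and WT GPI+ cells, 0.449% of all genes were higher and 0.393% lower. There Phgdh, of serine synthesis, was higher (0.61 ± 0.12). Cd163 (-0.70 ± 0.15), a macrophage haemoglobin receptor, and Fth1 (-0.61 ± 0.13), the ferritin heavy chain, were lower. The 2 heme and iron calls became 0 without WT graft GPI+ array 1 or 2 or WT GPI+ array 1 or 2, and the Phgdh call without any 1 WT graft GPI+ array or WT GPI+ array 1 or 4. Cat was lower in the same comparison.

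The difference between the knock-out and the graft comparison was called for list genes as well as for Gclc and Hmox1. Of all genes, 9.04% were called above 0 and 9.96% below. Neutrophil markers were called below 0 for 10 of 13 and monocyte markers for 6 of 7, with 0 above in both lists. T and NK cell markers were above 0 for 13 of 13, and B cell markers for 7 of 11 with 1 below. Erythroid markers were above 0 for 4 of 14 and below for 0. The part of these cell types in the differences of Gclc, Hmox1 and the list genes was not tested. The difference was -1.81 ± 0.25 for Gsr (adjusted p = 6.4e-05), -1.24 ± 0.21 for Msrb1 and -1.18 ± 0.18 for Ncf4, a subunit of the phagocyte oxidase. It was -1.4 ± 0.22 for Slc11a1, a metal transporter of phagocytes, -1.47 ± 0.20 for Idh1 and -1.06 ± 0.20 for Bach1. It was positive for Cbr1 at 1.36 ± 0.17, Bach2, a relative of Bach1, at 1.26 ± 0.19, Txnrd3 at 0.93 ± 0.20 and Tfrc at 0.93 ± 0.29. The Tfrc call was lost with probe sets averaged, with the KO GPI+ arrays averaged and without any of several single arrays, KO GPI- array 2 among them. With the KO GPI+ arrays averaged, the count of genes below 0 was 2 in place of 6 for heme and iron, 2 in place of 5 for thioredoxin, 3 in place of 6 for glutathione, 5 in place of 9 for other targets and 3 in place of 6 for oxidase and peroxidase genes. Over all genes, averaging left 581 below 0 in place of 1419, and 397 above in place of 1288.

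**Figure D5:**
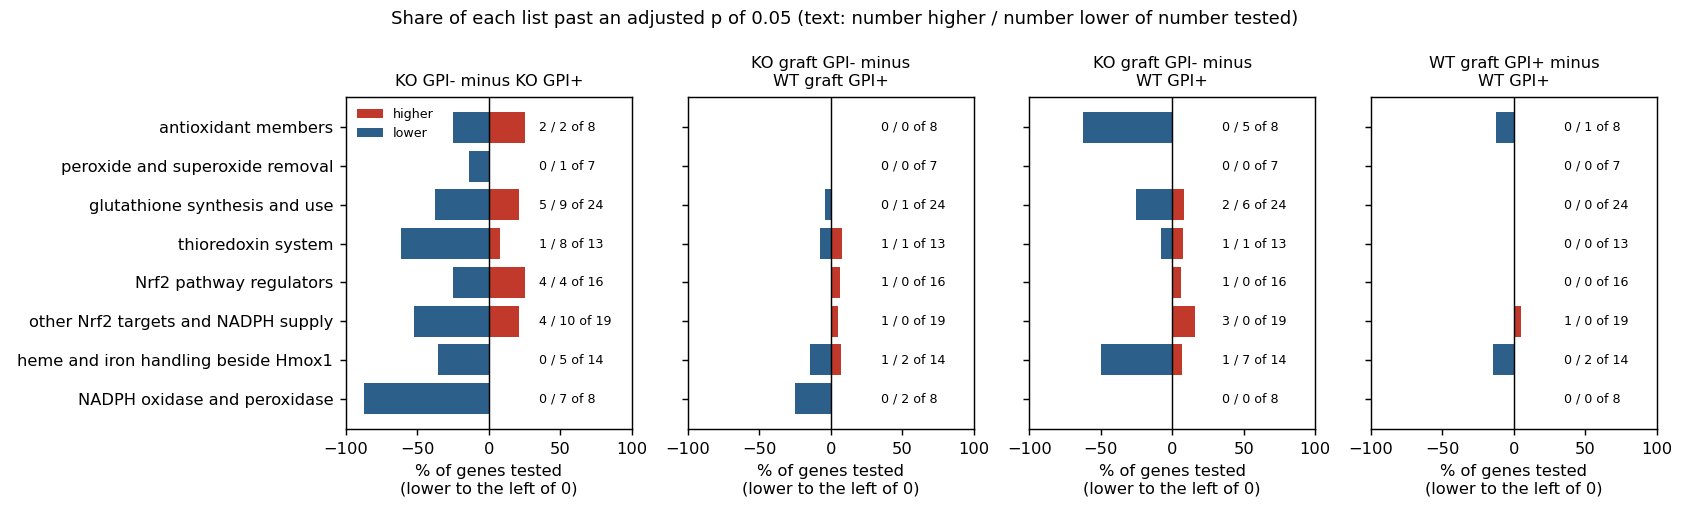
Percent of the tested genes of each list that were called higher (red, right of 0) or lower (blue, left of 0) in the 4 comparisons, with the counts as text. The antioxidant genes themselves reach 5 of 8 lower for KO graft GPI- minus WT GPI+ cells, and the longest bar is NADPH oxidase and peroxidase, 7 of 8 lower in KO GPI- cells.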

How the data were processed

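The authors deposited 1 table of 17 arrays and 45101 probe sets on a log10 scale, the base being read from the values. Arrays of a batch hold identical sorted values, so they were quantile-normalized per batch. The submitters' processing notes name GCOS. How probes were corrected and summarised is not stated in the labels. RNA input was 500 ng in the first experiment and 1000 ng in the second, per the labels' protocols, taken to be batches 1 and 2.

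The deposited log10 values were converted to log2 and arrays centred on a common median. Probe sets with 1 symbol (34945) had to reach the 40th percentile of an array on 3 or more arrays, and the brightest stood for each of 14245 genes. All 26398 were fitted in a second run. One limma 3.58.1 fit (R 4.3.3, eBayes with trend, 5 group means, 12 residual degrees of freedom) gave the differences, with Benjamini-Hochberg adjustment, after tests on simulated data. Titles call the arrays biological replicates and name no animals, so the spread may be technical, and the number of arrays limits precision.

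Members and lists were chosen with earlier results of these data known. Named genes were all members, the 2 largest called changes per list, comparison and direction, and the 3 genes most like each member. For the difference between comparisons only some of those largest changes are given. Nfe2l2, Keap1 and the value of Bach1 in knock-out marrow are given besides. Alternatives covered normalization, an offset of 10, filters, probe set choice, batches fitted apart, moderation, array weights, a replicate block, averaging of the KO GPI+ arrays and leaving out each array. Same-numbered samples did not deviate together (correlations -0.18 to 0.098), so numbers were not taken to pair them. The KO GPI+ arrays deviate so little from each other that this check could miss a pairing in knock-out marrow.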

Additional observations from a re-analysis of the deposited data

Results flagged for a closer look

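The log2 difference between the comparison within knock-out marrow and that between the graft groups passed the threshold for 2 of the 8 antioxidant genes, where 19.0% of all genes did. It was 1.09 for Gclc (adjusted p = 0.0038), which was higher in KO GPI- than in KO GPI+ cells. Between the graft groups Gclc was at -0.45, not past the threshold (adjusted p = 0.13). It was -1.24 for Hmox1 (adjusted p = 0.021), lower in KO GPI- than in KO GPI+ cells, with 0.24 between the graft groups. With the KO GPI+ arrays averaged into 1 sample, both calls were lost (adjusted p = 0.051 for Gclc and 0.14 for Hmox1). The batches and RNA inputs differ between these comparisons. So do the reference cells, which came from knock-out mice in the first and from recipients of wild-type marrow in the second. Only the graft groups were transplanted, with aerolysin and irradiation described for recipients of knock-out marrow. These factors cannot be told apart from the comparisons.

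Among the groups of 4 arrays, 1 of 28 held an array far from the others. Txnrd1 probe set 1424487_x_at read 1.48 on WT GPI+ array 3, against 1.72, 1.68 and 1.70 on the other 3. The gap to the nearest array was 0.836 of the group's range. Chance alone gives such a gap in about 1 in 20 groups.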

How the results depend on the processing

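Of 1112 member values recomputed in 28 other settings, 1048 kept their side of the threshold, 49 lost the threshold, 15 gained it and none reversed a call. Among these values, 27 that were not called took the other sign. In KO graft GPI- against WT GPI+ cells, Prdx2, Cat and Gclc stayed lower in all 28 settings. The count of members higher in KO GPI- than in KO GPI+ cells, 2, became 1 with no filter, with probe sets averaged per gene, without trend, with array weights and with the replicate block, and 0 with each batch fitted on its own or the KO GPI+ arrays averaged. It was 0 to 2 leaving out 1 array. The count lower, 2, became 1 with cyclic loess and 0 with the averaged arrays, and was 1 to 2 leaving out 1 array. Between the graft groups the count lower, 0, became 1 with probe sets averaged and 2 with each batch on its own or array weights, and was 0 to 2 leaving out 1 array. Against WT GPI+ cells the KO graft GPI- count lower, 5, was 3 to 6 leaving out 1 array, with 3 without KO graft GPI- array 3. In WT graft GPI+ against WT GPI+ cells the count lower, 1, became 0 with probe sets averaged, without trend, with the replicate block and with the averaged arrays, and was 0 to 1 leaving out 1 array. For the difference between comparisons, the count above 0, 1, became 0 with the averaged arrays and was 1 to 3 leaving out 1 array, with 3 without KO GPI- array 1. The count below 0, 1, became 2 with the offset of 10 or averaged probe sets and 0 with the averaged arrays, and was 0 to 2 leaving out 1 array, with 2 without WT graft GPI+ array 3.

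Over all genes, averaging the KO GPI+ arrays left 835 higher and 817 lower of 2102 and 2104 in knock-out marrow, and 397 and 581 of 1288 and 1419 for the difference between comparisons. In WT graft GPI+ against WT GPI+ cells, 64 higher and 56 lower became 32 and 27 without trend, 181 and 172 with array weights, 24 and 21 with the replicate block, and 21 and 24 with the averaged arrays. There the count higher became 38 with each batch on its own. Leaving out 1 array gave 9 to 122 higher and 12 to 140 lower there, and as few as 285 lower between the graft groups, where 491 were lower. The cause was not tested, except that averaging leaves fewer samples. Same-numbered samples were not paired by their correlations, and the replicate block ended the calls of Cat in knock-out marrow and in WT graft GPI+ cells and no other member's call. Of 70 counts of list genes, 44 moved by over 1.5 times in 1 or more settings.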
